A study of Mus musculus with 12 samples.

Results

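Transcripts annotated as retained introns were followed from total RNA onto polysomes in cultured fat stromal cells of obese mice, with and without the PPARγ agonist rosiglitazone (Rosi). Models of this class hold intronic sequence of a gene and carry no annotated coding sequence. They were found by matching the transcript identifiers of the quantification, without their version, to the transcript_type retained_intron of GENCODE M21, an annotation of the mouse genome GRCm38. Of 117135 transcripts, 21461 carried this type, in 9146 genes. In 9109 of these genes there were also protein_coding transcripts, 30938 in number, and 21405 retained_intron transcripts lay in them.

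All libraries were made from stromal vascular fraction (SVF) cells, the non-adipocyte cells of fat, of the epididymal depot of male Lepob/Lepob mice aged 12 weeks, which lack leptin. The cells were grown to confluency and differentiated in culture with 0.5 mM IBMX, 1 µM dexamethasone and 5 µg/mL insulin, then with insulin, in the presence of 1 µM Rosi or of DMSO as vehicle (Veh), and were taken on day 4 according to the protocols, or after 3 days by the series' description of its design. Cycloheximide, which holds ribosomes on mRNA, was added at 100 µg/mL for the last 5 minutes. Input was RNA taken before the cytoplasmic extract was fractionated on sucrose, and polysome was RNA of the pooled fractions with 3 or more ribosomes by that description, or more than 3 by the study's methods. The polysome libraries are titled by the tissue alone and were taken as polysome because the others are called input. Poly(A) RNA was sequenced, so intron-holding RNA without a poly(A) tail lay outside the measurement.

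The groups were polysome Veh with 3 libraries, polysome Rosi with 3, input Rosi with 3 and input Veh with 3 deposited libraries. Input Veh replicates 2 and 3 held the same estimated count for 117135 of 117135 transcripts and were counted as 1 sample, which left 11 libraries with 17446517 to 24016101 estimated reads each. The labels call them biological replicates without naming animals or cultures, so that p-values measure the spread between these libraries. The cells were a mixture. Summed TPM (a level scaled to transcript length and depth) over 14 macrophage markers ran from 15986 to 27107 across libraries, and over 5 endothelial markers from 5.15 to 9.15. Over 8 adipocyte markers the sum was 130 to 148 in input Veh and 1118 to 1174 in input Rosi, with Lep, the leptin gene, at 0 in both.

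An intron is normally cut from the precursor RNA before the mRNA leaves the nucleus. A transcript that keeps one may stay in the nucleus, or reach the cytoplasm, where the intron often brings an early stop codon into frame. A ribosome that ends there, ahead of an exon junction, can mark the RNA for nonsense-mediated decay (NMD). Regulated retention is well known in genes of splicing factors and other RNA-binding proteins, which use it to tune their own amounts.

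Against the protein_coding exons of the same gene, the retained_intron models fell into 2 kinds. In 6458 models at least 1 annotated intron lay whole inside an exon of the model, called whole-intron models below. In 14781 models no intron was whole, but the model began or ended inside one. A further 166 were of neither kind, and 56 had no protein_coding transcript in their gene. The whole-intron models were the longer ones, with a median of 1818.5 bases, against 777 for models ending inside an intron and 1921 for the protein_coding transcripts of these genes. A median of 467.5 bases of a whole-intron model and 330 bases of a model ending inside an intron lay outside all protein_coding exons of the gene, and reads can be told apart from the mRNA of the gene mainly over those bases. At least 1 estimated read was seen for 15025 of the 21461 transcripts, and the other 6436 were at 0 in every library.

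The 8644 different introns held whole had a median length of 278 bases and ran from 30 to 15387 bases. They began with GT and ended with AG in 8486 cases (98.2%), with GC and AG in 102 (1.18%) and with AT and AC in 12, and 39 began with gtatcctt or atatcctt, read on the strand of the gene, the donor of the minor (U12) spliceosome. The splice sites of introns that recur in the results are shown because they mark which stretch the annotated model keeps. The first capitals mark the intron's first 2 bases and the second its last 2, with 3 exon bases outside them, read from GRCm38.p6.

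Rsrp1-204 intron 3 of 4 in Rsrp1-201, 5′ splice site: gagGTaagtgcc
Rsrp1-204, 3′ splice site: aaaattctcttcctctttAGcat
Srsf5-212 intron 5 of 7 in Srsf5-201, 5′ splice site: cagGTttgttga
Srsf5-212, 3′ splice site: cataattgtcttgtgttaAGgat
Rpl3-204 intron 3 of 9 in Rpl3-201, 5′ splice site: ctgGTaagaggc
Rpl3-204, 3′ splice site: actgtgctctgctcctgaAGgca
Fth1-208 intron 1 of 3 in Fth1-201, 5′ splice site: atgGTgagtgcg
Fth1-208, 3′ splice site: tgtaccctttccactttcAGtct
Neu1-202 intron 3 of 5 in Neu1-201, 5′ splice site: cagGTttcaccc
Neu1-202, 3′ splice site: ccacttcctcttcttaacAGaaa
Fabp5-202 intron 1 of 3 in Fabp5-201, 5′ splice site: tagGTgagattt
Fabp5-202, 3′ splice site: tgtcattttccatcccacAGgag
Vim-204 intron 3 of 8 in Vim-201, 5′ splice site: gaaGTaagtgac
Vim-204, 3′ splice site: tgtgtctgttctttctccAGgag
E2f6-202, 5′ splice site: aagATatccttc
E2f6-202, 3′ splice site: gatccttgaccaggtctcACact
Rpl4-203, 5′ splice site: aatGTatccttg
Rpl4-203, 3′ splice site: attcttgacaaagaaaacAGatg

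In the order shown, the introns of the first 7 lie at chr4:134925433-134926734 on the plus strand, chr12:80947866-80949094 on the plus strand, chr15:80081032-80081614 on the minus strand, chr19:9982984-9984180 on the plus strand, chr17:34932829-34934002 on the plus strand, chr3:10012719-10014970 on the plus strand and chr2:13578509-13578588 on the plus strand. Each is within the coding sequence of its gene. Fabp5-202 also holds intron 2 of Fabp5-201 whole, at chr3:10015144-10015471, which is not shown. The intron of E2f6-202 lies at chr12:16820385-16822092 on the plus strand and that of Rpl4-203 at chr9:64175301-64175583 on the plus strand, and both have a U12-type donor, with AT and AC at the ends in the E2f6 intron. The E2f6 model, from a gene for a transcriptional repressor, was at 5.16, 3.96 and 4.46 TPM in polysome Veh and 2.76 and 2.47 in input Veh, and the ribosomal protein model Rpl4-203 was at 1.87, 1.09 and 1.06 in polysome Veh and 6.27 and 4.32 in input Veh. The log2 fold changes of polysome over input were thus 0.74 ± 0.20 (SE, adjusted p = 0.0351) and -2.00 ± 0.58 (SE, adjusted p = 0.0453). The first is below the size required for a call, and the Rpl4-203 call was lost in 11 of 20 alternative settings.

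Of the 8644 introns, 7908 interrupted a coding sequence, 646 a 5′ UTR and 90 a 3′ UTR. In 7036 of the 7908 (89.0%), reading on from the exon before met a stop codon inside the intron, at a median of 37 bases into it. The stop codons of the introns above are in capitals with 12 bases on each side, and positions count from 1 at the intron's 5′ end.

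Rsrp1-204, in-frame stop at intron base 49: accctttgccagTGAacacaaccctcc
Srsf5-212, in-frame stop at intron base 7: tggcaggtttgtTGAaatacagttttg
Rpl3-204, in-frame stop at intron base 2: tataagaactggTAAgaggctcttggg
Fth1-208, in-frame stop at intron base 163: agtctgagcacaTAGcaccttgtggct
Neu1-202, in-frame stop at intron base 16: tcaccctgtggaTAGgaggagggcaag
Fabp5-202, in-frame stop at intron base 246: gcggtactgctgTGAgccccctacaaa
Vim-204, in-frame stop at intron base 25: aatttctgtgggTGAacaaagctgcga

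The stop came as early as base 2 in Rpl3-204 and as late as base 246 in Fabp5-202.

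The share of TPM held by all models of the class overlapped between polysomes and input, a result that changed with the setting, while the share of its whole-intron models was lower on polysomes. Retained_intron transcripts held 2.25 to 2.42% of all TPM. Of the TPM of retained_intron plus protein_coding transcripts in genes with both, they held, by group mean, 4.31% ± 0.102 (SD, n = 3) in polysome Veh, 4.12% ± 0.118 (SD, n = 2) in input Veh, 4.13% ± 0.0472 (SD, n = 3) in polysome Rosi and 4.11% ± 0.0587 (SD, n = 3) in input Rosi. The groups overlap, and polysome over input differed by 0.0992 percentage points over both treatments (exact permutation test over libraries regrouped within treatment, two-sided, p = 0.14, adjusted p = 0.24 over 24 tests). Taken as the median share over genes instead, the difference was -0.14 points, of the other sign (exact permutation test, p = 0.54). In 3 other settings the share was higher on polysomes past the unadjusted threshold, by 0.144 points with estimated reads in place of TPM (p = 0.01), by 0.184 without the 10 most abundant models (p = 0.005) and by 0.0557 with at least 100 bases outside protein_coding exons (p = 0.03), all in exact permutation tests. Without the 10 most abundant models the libraries did not overlap, at 3.15 to 3.34% on polysomes and 3.01 to 3.13% in input. In Veh alone the difference was 0.185 (p = 0.3) and in Rosi alone 0.0137 (p = 0.6), in exact tests that cannot go below 0.1.

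Whole-intron models held 0.937, 0.982 and 1.05% of the TPM of whole-intron plus protein_coding transcripts in polysome Veh, and 1.118 and 1.115% in input Veh. In polysome Rosi the values were 0.962, 0.887 and 0.926%, and in input Rosi 1.113, 1.111 and 1.107%. Every polysome library lay below every input library. The difference was -0.156 percentage points over both treatments (exact permutation test, p = 0.010, adjusted p = 0.030, where the smallest p the 200 regroupings allow is 0.005), and it ran from -0.171 to -0.143 when each library was left out in turn. Models that end inside an intron went the other way. Their share was 3.19 to 3.36% in the 6 polysome libraries and 2.95 to 3.11% in the 5 input libraries, a difference of 0.242 points (exact permutation test, p = 0.005, adjusted p = 0.020). The share tests by kind of model, and the tests of detected transcripts and against other classes below, were not planned. The planned share test was that of all models. In these bulk samples, a shifted polysome share in all cells and one in some of the cells cannot be told apart.

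**Figure D1:**
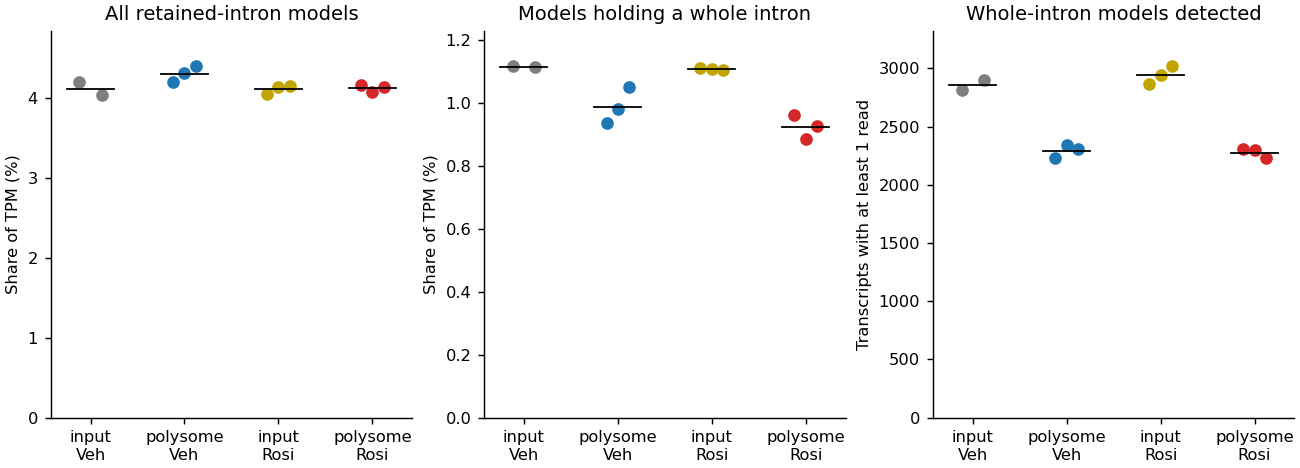
TPM share of all retained_intron models (left), TPM share of whole-intron models (middle) and number of whole-intron models with at least 1 estimated read (right), by group, with 1 point for each counted library and a line at the mean. The shares of all models overlap between polysome and input, while whole-intron shares and counts are lower in every polysome library, with 2227 to 2343 models against 2817 to 3018.

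Fewer retained_intron transcripts were seen on polysomes, although the TPM shares of all models overlapped. At least 1 estimated read was seen for 5878 to 6229 retained_intron transcripts in the polysome libraries and for 7153 to 7788 in the input libraries, with no overlap (exact permutation test, p = 0.005, adjusted p = 0.020). For whole-intron models the counts were 2227 to 2343 and 2817 to 3018 (p = 0.005, exact permutation test). The difference of group means was -1338 transcripts for all models and -617 for whole-intron models, so the drop was not confined to whole-intron models. Protein_coding transcripts with a read numbered 27883 to 29252 on polysomes and 27947 to 29617 in input (difference of group means -132 transcripts, p = 0.59, exact permutation test).

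Set against 2 other classes of transcript, the whole-intron models were lower on polysomes too. The log2 of their summed TPM over that of transcripts annotated for NMD differed by -0.38 between polysome and input (exact permutation test, p = 0.005, adjusted p = 0.020), and over that of processed_transcript models, which have no open reading frame, the difference was -0.23 (p = 0.010, adjusted p = 0.030, exact permutation test).

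Transcript by transcript, edgeR's quasi-likelihood test called a transcript at an adjusted p (Benjamini-Hochberg over all transcripts) under 0.05 and a log2 fold change over 1 in size. In Veh, 2.59% of all 34946 transcripts tested were called higher on polysomes and 3.77% lower. Of the 3576 retained_intron transcripts tested, 52 were higher (1.45%) and 115 lower (3.22%), with a median log2 fold change of -0.20 against 0.02 over all transcripts. Of the 1512 whole-intron models tested, 9 were higher (0.595%) and 74 lower (4.89%), with a median of -0.53. Of the 2001 models ending inside an intron, 41 were higher (2.05%) and 37 lower (1.85%), with a median of 0.05. NMD transcripts had a median of 0.23 and processed_transcript models one of 0.18. The 167 calls in Veh fell to 110 without polysome Veh replicate 1, to 91 without input Veh replicate 1 and to 98 without input Veh replicate 2, and the 83 whole-intron calls to 53, 38 and 37.

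In Rosi the whole-intron models again had the lowest median of these classes. Of all transcripts, 4.28% were called higher and 3.32% lower. Of the retained_intron transcripts 85 (2.38%) were higher and 135 (3.78%) lower, with a median of -0.26. Whole-intron models gave 9 higher (0.595%) and 92 lower (6.08%), with a median of -0.59, and models ending inside an intron gave 75 higher (3.75%) and 38 lower (1.90%), with a median of 0.00. Without input Rosi replicate 3 the 220 calls fell to 146. The medians of the whole-intron models were also below 0 among transcripts measured in both fractions. Among the 893 with at least 10 reads in 2 or more libraries of each fraction, the medians were -0.34 in Veh and -0.43 in Rosi, with 49 and 58 called lower and 8 and 8 higher. A further 371 of the 1512 reached that level in input alone and 129 on polysomes alone. Of 22070 protein_coding transcripts at that level in both fractions, 1090 were lower and 686 higher in Veh, with a median of 0.02. In Rosi 881 were lower and 1144 higher, with a median of 0.00. The share called lower in Veh was thus similar in both sets.

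**Figure D2:**
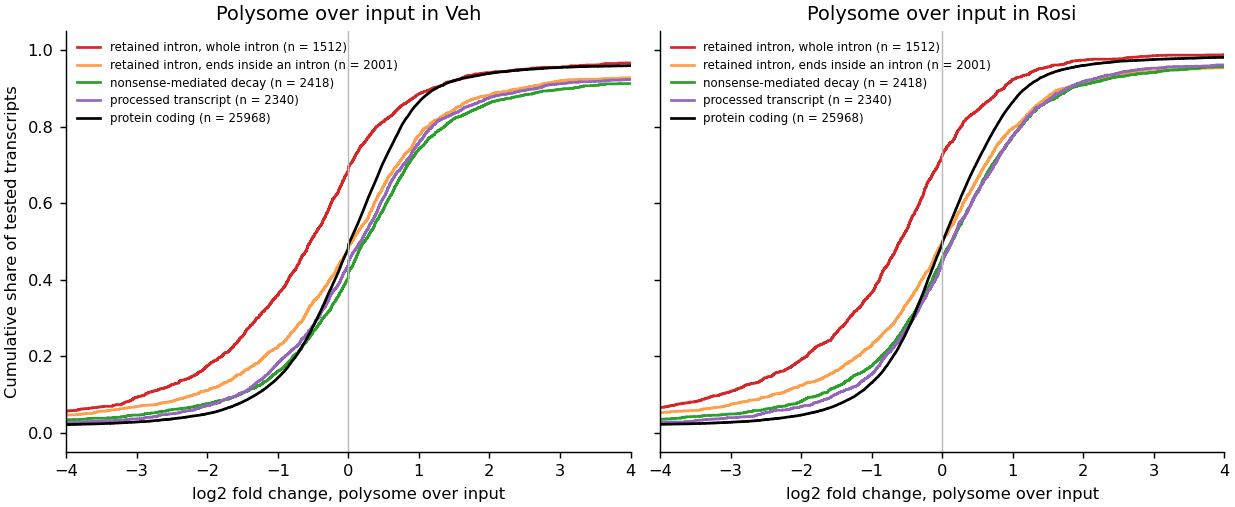
Cumulative share of tested transcripts (vertical axis) up to a log2 fold change of polysome over input (horizontal axis), in Veh (left) and Rosi (right), 1 line for each class, with values beyond 4 in size off the axes. Over most of the axis the line of whole-intron models lies to the left of the others, with medians of -0.53 and -0.59, while that of protein_coding transcripts crosses near 0.

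The 2 treatments used different libraries, and 63 transcripts were called lower in both (54.8% of those in Veh, 46.7% of those in Rosi) and 25 higher in both (48.1% and 29.4%). The same overlap was not counted over all transcripts, so it cannot be called particular to this class. Of the 63, 42 were whole-intron models, 17 ended inside an intron, 3 were of neither kind and 1 had no protein_coding transcript in its gene. Of the 25, 3 were whole-intron models, 21 ended inside an intron and 1 was of neither kind. Among the 42 whole-intron models, 32 had a read in every library and at least 100 bases outside protein_coding exons. The transcripts described next were taken from these and the matching sets of the other kinds, a choice made after their values were seen, so that their fold changes are given as measured and not as support for the class.

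**Figure D3:**
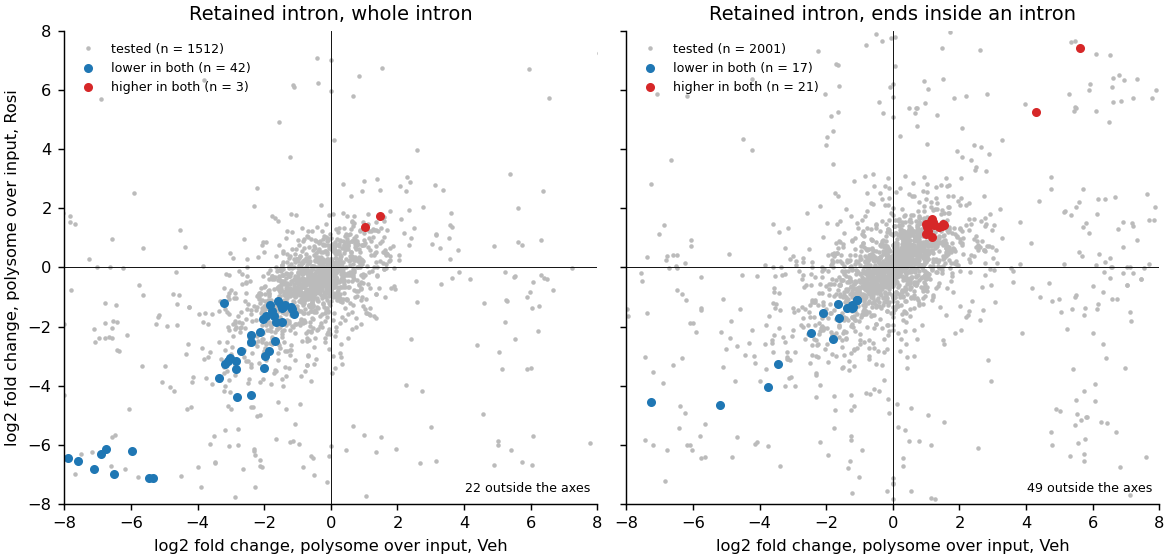
Log2 fold change of polysome over input in Veh (horizontal) and Rosi (vertical) for whole-intron models (left) and models ending inside an intron (right), 1 point for each tested transcript, with those called in both treatments in colour and 22 and 49 points outside the axes. Coloured points are 42 lower and 3 higher at left, and 17 lower and 21 higher at right.

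Several came from splicing factor genes. Rsrp1-204, from a gene for an arginine and serine rich protein, keeps an intron of 1302 bases. It was at 9.06 and 8.12 TPM in input Veh and 1.63, 0.759 and 1.78 in polysome Veh. In input Rosi it was at 7.04, 4.36 and 5.31 and in polysome Rosi at 0.696, 0.825 and 0.767, so the fractions did not overlap in either treatment. Its log2 fold change was -2.69 ± 0.35 (SE, adjusted p = 0.00104) in Veh and -2.84 ± 0.33 (SE, adjusted p = 0.000462) in Rosi, and it passed in all 20 alternative settings run in Veh. The protein_coding transcripts of the gene were at 4.17, 5.05 and 6.63 TPM in polysome Veh and 6.097 and 4.06 in input Veh, which overlap.

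Srsf5 and Srsf2 encode SR proteins, which bind exons and direct splice site choice. Srsf5-212, which keeps the intron of 1229 bases shown above, was at 4.39 and 8.02 TPM in input Veh and 1.99, 2.52 and 1.47 in polysome Veh, and polysome over input came to -1.70 ± 0.33 (SE, adjusted p = 0.00768) on the log2 scale. In Rosi the values were 4.36, 4.398 and 4.37 and 1.65, 1.38 and 1.04, or -1.65 ± 0.31 (SE, adjusted p = 0.00491) on the log2 scale. Its protein_coding transcripts were at 245, 227 and 238 TPM on polysomes and 155 and 148 in input in Veh, higher on polysomes while the intron-holding model was lower. Srsf2-203, whose introns lie in the 3′ UTR, was at 1.797 and 3.198 TPM in input Veh and 0.823, 0.459 and 0.593 in polysome Veh, and polysome over input was -2.03 ± 0.42 (SE, adjusted p = 0.0102) in Veh and -1.75 ± 0.39 (SE, adjusted p = 0.0117) in Rosi on the log2 scale. Snrnp70-216, from the gene of a U1 snRNP protein, is a model of neither kind and had log2 fold changes of -2.86 ± 0.28 (SE, adjusted p = 0.000354) and -3.65 ± 0.28 (SE, adjusted p = 0.000109).

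Some of these models came from ribosomal protein genes. Rpl3-204 was at 6.35 and 5.31 TPM in input Veh and 1.68, 2.73 and 2.24 in polysome Veh, and its log2 fold change was -1.45 ± 0.32 (SE, adjusted p = 0.0142) in Veh and -1.36 ± 0.30 (SE, adjusted p = 0.0105) in Rosi. The protein_coding transcripts of Rpl3 were at 1552 and 1510.0 and 1109, 1126 and 996 TPM in these groups. Rpl12-207, which keeps 3 introns, had log2 fold changes of -2.38 ± 0.50 (SE, adjusted p = 0.0103) and -2.29 ± 0.47 (SE, adjusted p = 0.00729), and the protein_coding transcripts of Rpl12 were at 20.1 and 22.2 TPM in input Veh and 24.8, 25.03 and 19.3 in polysome Veh. Rpl10a-204 fell by 1.85 and 2.81 and Rps2-204 by 1.67 and 2.48 on the log2 scale in Veh and Rosi, and their Veh calls were lost in 8 and 13 of 20 alternative settings.

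Genes of iron, lipid and lysosomal metabolism were also represented. Fth1-208, from the gene of the ferritin heavy chain, the iron store of the cell, was at 7.91 and 7.88 TPM in input Veh and 1.31, 1.37 and 0.726 in polysome Veh, and at 4.87, 6.92 and 7.12 in input Rosi and 0.295, 0.8104 and 0.541 in polysome Rosi. Its log2 fold changes were -2.84 ± 0.42 (SE, adjusted p = 0.00207) and -3.45 ± 0.41 (SE, adjusted p = 0.000516). The protein_coding Fth1 transcripts were themselves lower on polysomes in Veh, at 2282, 2881 and 2568 against 7717 and 7640.5 TPM. Neu1-202, of a lysosomal sialidase, was at 1.95, 1.15 and 1.42 TPM in input Rosi and 0.0317, 0.113 and 0.0742 in polysome Rosi, or -4.33 ± 0.55 (SE, adjusted p = 0.00068) on the log2 scale, and -2.39 ± 0.53 (SE, adjusted p = 0.0134) in Veh. Fabp5-202, of a fatty acid binding protein, was at 1.05 and 1.43 TPM in input Veh and 0.149, 0.341 and 0.0485 in polysome Veh, with log2 fold changes of -2.85 ± 0.69 (SE, adjusted p = 0.02) and -3.16 ± 0.67 (SE, adjusted p = 0.00874), while its protein_coding transcripts were at 521 and 504 and 791, 718 and 621 TPM. The Fabp5 call in Veh was lost in 5 of 20 alternative settings.

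Dusp1-203, from an immediate early gene whose phosphatase switches off MAP kinases, was at 4.99 and 3.82 TPM in input Veh and 1.21, 1.998 and 1.74 in polysome Veh. Its log2 fold changes were -1.48 ± 0.31 (SE, adjusted p = 0.0113) and -1.83 ± 0.29 (SE, adjusted p = 0.00215). Slc25a3-208, of the mitochondrial phosphate carrier, had log2 fold changes of -2.40 ± 0.56 (SE, adjusted p = 0.0177) and -2.54 ± 0.53 (SE, adjusted p = 0.00859), and Aars-207, of alanyl-tRNA synthetase, had -3.01 ± 0.45 (SE, adjusted p = 0.00205) and -3.08 ± 0.43 (SE, adjusted p = 0.00105). Cytoskeletal genes included Pfn1-203, of the actin-binding profilin, with -1.16 ± 0.27 (SE, adjusted p = 0.0177) and -1.41 ± 0.25 (SE, adjusted p = 0.00361).

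Vim-204, of the intermediate filament vimentin, keeps an intron of 80 bases, and those 80 bases are all that sets it apart from the mRNA. It was at 183 and 58.1 TPM in input Veh and 0.971, 1.604 and 3.49 in polysome Veh, and at 104, 179 and 173 in input Rosi and 3.36, 1.405 and 1.28 in polysome Rosi. The log2 fold changes, -5.96 ± 0.61 (SE, adjusted p = 0.000396) and -6.21 ± 0.59 (SE, adjusted p = 0.000219), were the largest among whole-intron models with a read in every library. Vimentin's protein_coding transcripts were at 2037 and 1806 TPM in input Veh and 927, 1080.2 and 1096 in polysome Veh. A second vimentin model, Vim-203, which ends inside an intron and has 52 bases of its own, moved the other way, with 0.80 ± 0.19 (SE, adjusted p = 0.0187) in Veh and 1.27 ± 0.17 (SE, adjusted p = 0.00079) in Rosi.

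Genes of macrophages and other myeloid cells held several of these models. Stab1-209, of a scavenger receptor of macrophages, was at 78.3 and 87.8 TPM in input Veh and 23.8, 39.7 and 32.5 in polysome Veh, or -1.44 ± 0.28 (SE, adjusted p = 0.00703) on the log2 scale. The protein_coding Stab1 transcripts differed by more, at 93.2 and 87.5 TPM in input Veh and 11.2, 17.03 and 18.5 in polysome Veh. Lilr4b-208 and Lilrb4a-207, of near-identical inhibitory receptors that can exchange reads, had log2 fold changes of -2.12 ± 0.36 (SE, adjusted p = 0.004) and -1.65 ± 0.49 (SE, adjusted p = 0.0486) in Veh, the latter lost in 12 of 20 alternatives. In Veh Lilr4b-206 was lower too, at -3.20, while Lilr4b-212 went the other way, at 2.03, a call lost in 1 of 20 alternatives. The protein_coding transcripts of both genes were higher on polysomes, those of Lilrb4a at 250.5, 217 and 200.3 TPM against 109 and 82.8. Summed over the 14 macrophage markers, all detected, TPM was 22673 to 27107 in polysome Veh and 21251 to 22667 in input Veh, and 20062 to 23728 in polysome Rosi and 15986 to 18040 in input Rosi. The part of this in the result was not tested.

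**Figure D4:**
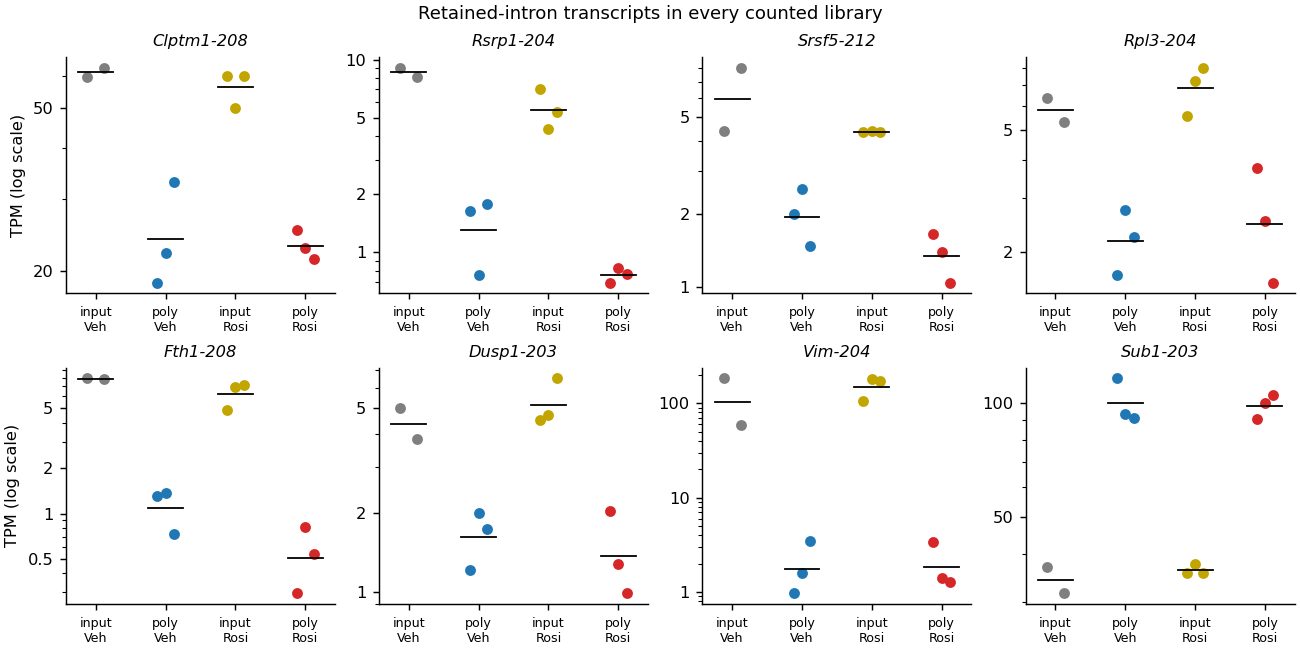
TPM (log scale) of 8 retained_intron transcripts in each counted library, by group, with a line at the geometric mean. The 7 whole-intron models are lower in every polysome library than in every input library of the same treatment, with Vim-204 at 0.971 to 3.49 against 58.1 to 183, while Sub1-203, which ends inside an intron, is higher, at 90.5 to 116 against 31.6 to 37.8.

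Transcripts higher on polysomes in both treatments were mostly models ending inside an intron. Sub1-203, of a transcriptional coactivator, was at 116, 93.2 and 91.4 TPM in polysome Veh and 37.1 and 31.6 in input Veh, with log2 fold changes of 1.50 ± 0.17 (SE, adjusted p = 0.000527) and 1.48 ± 0.14 (SE, adjusted p = 0.000221). Its protein_coding transcripts were also higher on polysomes, at 242, 186 and 181 TPM against 80.7 and 94.8. Asah1-203, of the lysosomal acid ceramidase, had log2 fold changes of 1.04 ± 0.20 (SE, adjusted p = 0.00775) and 1.35 ± 0.18 (SE, adjusted p = 0.000819), and Rcn1-202, of a calcium-binding protein of the endoplasmic reticulum, had 1.16 ± 0.19 (SE, adjusted p = 0.00311) and 1.02 ± 0.16 (SE, adjusted p = 0.00217). Of the 3 whole-intron models, 2 had a read in every library, and the 1 of these with at least 100 bases outside protein_coding exons was Iws1-203, of a transcription elongation factor, at 4.31, 4.11 and 3.29 TPM in polysome Veh and 1.43 and 1.27 in input Veh, with 1.49 ± 0.23 (SE, adjusted p = 0.00253) and 1.73 ± 0.20 (SE, adjusted p = 0.000452).

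The 10 members with the highest mean TPM held 25% of the TPM of the class, and none was called in Veh. Ctsb-202, of the lysosomal protease cathepsin B, was at 1369, 1910.1 and 1876 TPM in polysome Veh and 2537 and 2381 in input Veh, or -0.58 ± 0.12 (SE, adjusted p = 0.0116) on the log2 scale, below the size required. It has 91 bases outside protein_coding exons. Itm2b-202 had 0.42 ± 0.07 (SE, adjusted p = 0.00406), Lrp1-208, of an endocytic receptor, -0.99 ± 0.17 (SE, adjusted p = 0.00409), and Manf-205, of a secreted stress protein, 0.53 ± 0.09 (SE, adjusted p = 0.00463). Fbln2-206, Rps16-202, Prelid1-202 and Rps20-201 had adjusted p-values in Veh from 0.155 to 0.985, and Vim-203, called in Rosi, is given above. Lrp1-208 was called lower in 7 of 20 alternative settings in Veh.

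The largest fitted changes belonged to transcripts that Salmon set to 0 in one group, so that the least fold was computed with 3 counts in each such library, and an estimated 0 can also arise when shared reads are given to another transcript. Lower on polysomes in Veh, with 0 in the 3 polysome Veh libraries, were Ddb1-211, at least 50.3-fold and with 0 in the polysome Rosi libraries too, Babam2-208, at least 41.7-fold, Aars-204, at least 21.1-fold, Arhgap45-204, at least 19.99-fold, Usp14-203, at least 18.6-fold, Lrpap1-203, at least 12.1-fold, Mrpl21-203, at least 11.3-fold, and Nckap1l-203, at least 9.76-fold. Higher, with 0 in both input Veh libraries, were Tkt-208, of transketolase, at least 134-fold, Pacs2-203, at least 60.2-fold, Cdk8-203, at least 58.8-fold, Srp72-204, at least 48.8-fold, Gabarapl2-203, at least 41.7-fold, Rheb-202, at least 39.2-fold, Anxa5-202, at least 32.2-fold, and Pfas-205, at least 16.7-fold. In 20 alternative settings the Veh call was lost in 12 for Cdk8-203, 11 for Pacs2-203, 10 for Aars-204, 8 for Arhgap45-204, 4 for Srp72-204 and 1 for Lrpap1-203, and in 10 of 18 for Nckap1l-203. Of these 16, 4 were whole-intron models: Arhgap45-204, Lrpap1-203, Nckap1l-203 and Pfas-205. Tkt-208 was at 19.004, 30.7 and 19.8 TPM in polysome Veh and 22.3, 27.3 and 31.7 in polysome Rosi, against 0 in every input library, while the protein_coding transcripts of Tkt were at 13.9, 20.99 and 16.2 TPM in polysome Veh and 57.5 and 55.2 in input Veh.

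To separate retention from the amount of the gene, the summed TPM of retained_intron transcripts was set against that of the protein_coding transcripts of the same gene and the log2 ratio tested with limma, with the same thresholds. Over 4791 pairs of a gene and a class, 1.98% were higher on polysomes in Veh and 0.898% lower, and 2.53% and 1.31% in Rosi. For retained introns, with 2022 genes tested, 35 were higher (1.73%) and 28 lower (1.38%) in Veh, with a median log2 difference of -0.09. In Rosi 53 (2.62%) were higher and 46 (2.27%) lower, with a median of -0.12. Between the treatments 24 genes were higher in both (68.6% of those in Veh, 45.3% of those in Rosi) and 12 lower in both (42.9% and 26.1%), an overlap that was not counted over all pairs. NMD transcripts gave 26 higher and 6 lower of 1457 in Veh, with a median of 0.18, and processed_transcript models 34 and 9 of 1312, with a median of 0.10. The 63 calls in Veh fell to 30 without input Veh replicate 1. The 99 in Rosi fell to 63 without polysome Rosi replicate 1, to 50 without polysome Rosi replicate 3, to 51 without input Rosi replicate 2 and to 46 without input Rosi replicate 3.

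With only the whole-intron models counted, a setting added after the data were seen, 14 of 875 genes (1.60%) were higher and 17 (1.94%) lower in Veh, with a median of -0.21. In Rosi 14 (1.60%) were higher and 34 (3.89%) lower, with a median of -0.30. Over all classes in this setting 2.03% were called higher and 0.878% lower in Veh, and 2.22% and 1.4% in Rosi. The ratio was lower in both treatments for Rsrp1, -2.68 ± 0.53 (SE, adjusted p = 0.0256) and -2.82 ± 0.48 (SE, adjusted p = 0.0106), and for Fabp5, -2.85 ± 0.50 (SE, adjusted p = 0.0141) and -3.10 ± 0.45 (SE, adjusted p = 0.00448). Vim gave -4.62 ± 0.52 (SE, adjusted p = 0.00172) and -4.77 ± 0.46 (SE, adjusted p = 0.000622), and Actb, of β-actin, -2.02 ± 0.43 (SE, adjusted p = 0.0362) and -1.94 ± 0.39 (SE, adjusted p = 0.0213). Stab1 was higher in both, 1.64 ± 0.26 (SE, adjusted p = 0.00982) and 1.20 ± 0.24 (SE, adjusted p = 0.0203). For Tmem214, Maged2 and Fth1, whose whole-intron models were called lower, the ratio was not called in either treatment, with -0.35 ± 0.22 (SE, adjusted p = 0.467), -0.57 ± 0.25 (SE, adjusted p = 0.271) and -1.26 ± 0.81 (SE, adjusted p = 0.484) in Veh.

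Among the genes with the largest ratio changes over all models in Veh, Anxa5, a calcium-dependent membrane-binding protein, was at 4.82, 1.96 and 4.64% retained_intron TPM in polysome Veh and 0% in both input Veh libraries. Rheb, an activator of mTORC1, was at 11.8, 14.9 and 5.27% in polysome Veh and 0.0857 and 0.0374% in input Veh, a log2 ratio difference of 6.22 ± 0.52 (SE, adjusted p = 0.000396). Tkt was at 57.8, 59.7 and 55.1% and 1.5002 and 1.62%, with 6.27 ± 0.72 (SE, adjusted p = 0.00206), which came to -0.34 with whole-intron models alone. Postn, of the matrix protein periostin, was at 8.53, 9.46 and 7.56% and 0.0648 and 0.599%, with 5.37 ± 0.78 (SE, adjusted p = 0.00555). Gabarapl2, of the autophagy family, was at 16.7, 10.1 and 19.4% and 0% in both input Veh libraries. The groups did not overlap in these genes. On the low side, Ddb1, of a DNA damage ubiquitin ligase, was at 0.231, 0.124 and 0.189% and 9.91 and 6.67%, with -5.16 ± 0.79 (SE, adjusted p = 0.00774), and Slc25a4, the ADP/ATP carrier, at 0.217, 1.09 and 0% and 9.402 and 9.91%, with -5.73 ± 1.15 (SE, adjusted p = 0.0256), a call lost in 7 of 20 alternative settings. Mrpl21, Babam2 and Zfp740 were at 0% in all 3 polysome Veh libraries and at 15.5 and 12.3%, 28.7 and 29.1% and 12.4 and 9.26% in input Veh. Hus1 was at 2.08, 22.9 and 12.9% and 100% in both input Veh libraries, where its protein_coding transcripts were at 0 TPM. The size of a log2 difference against a 0 is set by the pseudocount and is not given for these genes.

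Lists of genes with known roles showed where the members lay. They are described by their counts and medians, beside 2.59% higher and 3.77% lower over all transcripts in Veh, and 4.28% and 3.32% in Rosi. For SR proteins, their kinases and partners, 34 of 89 retained_intron transcripts were tested, of which 0 were higher and 2 lower in Veh (Srsf5-212 and Srsf2-203) with a median of -1.31, and 0 and 3 in Rosi (Srsf6-204 added) with a median of -0.92. For hnRNPs, RNA helicases and other RNA-binding proteins, 31 were tested, 0 were higher and 3 lower in Veh (Ddx39b-204, Hnrnpa2b1-211 and Hnrnpl-205, the first 2 of them lost in 12 and 13 of 20 alternative settings), with a median of -0.91, and in Rosi 1 was higher (Rbm5-224) and 4 lower, with a median of -0.64. Cytosolic ribosomal proteins gave 80 tested, 0 higher and 5 lower in each treatment (Rpl12-207, Rpl3-204, Rpl10a-204 and Rps2-204 in both, Rpl4-203 in Veh and Rpl10a-206 in Rosi), with medians of -0.64 and -0.75. Translation factors gave 36 tested, 0 higher and 1 lower in Veh (Eif2b2-206, which has 7 bases of its own) and 3 lower in Rosi (Eef1a1-206 and Eif4a1-202 added), with medians of -0.77 and -0.49. Genes known for regulated introns gave 14 tested, 0 calls in Veh and 1 lower in Rosi (Ogt-204), with medians of -0.68 and -0.65. Adipocyte and PPARγ target genes gave 11 tested, 0 higher and 3 lower in Veh (Fabp5-202, Fasn-202 and Pnpla2-207) and 2 lower in Rosi, with medians of -0.67 and -0.92. Of the 4 tested immediate early transcripts, 2 were lower in Veh (Dusp1-203 and Fosb-204) and 1 in Rosi. Among nuclear noncoding RNAs only Snhg11 had such models, 2 in number, none of them tested, and mitochondrial-encoded mRNAs had none.

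Relative to protein_coding transcripts, 4 of 19 genes of the SR list tested were lower in each treatment and 0 higher, namely Srsf2, Srsf3, Srsf5 and Srpk1 in Veh and Srsf3, Srsf5, Srsf6 and Clk1 in Rosi. Over all pairs 0.898% were lower in Veh and 1.31% in Rosi, and over the retained-intron genes 1.38% and 2.27%. Srsf5 was at 0.882, 1.16 and 0.692% retained_intron TPM in polysome Veh and 2.89 and 5.26% in input Veh, a log2 ratio difference of -2.13 ± 0.34 (SE, adjusted p = 0.00897), and -1.95 ± 0.30 (SE, adjusted p = 0.00525) in Rosi. Srsf3 was at 0.402, 0.398 and 0.243% and 1.28 and 1.6998%, with -1.98 ± 0.42 (SE, adjusted p = 0.0332) and -2.44 ± 0.37 (SE, adjusted p = 0.00525), and Srsf2 at 1.19, 0.543 and 0.712% and 2.45 and 4.39%, with -1.96 ± 0.42 (SE, adjusted p = 0.0358) and -1.51 ± 0.38 (SE, adjusted p = 0.0521), and the last of these was not called. The Veh calls of Srsf3 and Srsf2 were each lost in 11 of 20 alternatives. Among 16 RNA-binding protein genes, Hnrnpa2b1 was lower in Veh, with -1.63 ± 0.36 (SE, adjusted p = 0.0397), a call lost in 11 of 21 alternatives, and Rbm5, a splicing regulator, was higher in both, at 52.7, 30.2 and 46.9% in polysome Veh against 8.88 and 11.9% in input Veh, with 2.64 ± 0.46 (SE, adjusted p = 0.0141) and 3.81 ± 0.41 (SE, adjusted p = 0.000926). Fabp5 was at 0.0189, 0.0475 and 0.00781% and 0.2002 and 0.284%, with -2.85 ± 0.51 (SE, adjusted p = 0.0149) and -3.10 ± 0.45 (SE, adjusted p = 0.00415). Of the 6 adipocyte and PPARγ target genes tested, 4 ratios were above 0 and 2 below in Veh, with a median of 0.30. In Rosi 2 were above and 4 below, with a median of -0.88. The Fasn ratio was 0.95 in Veh, not called. With whole-intron models only it was called higher in Veh, 1.48 ± 0.34 (SE, adjusted p = 0.0476). Of 39 ribosomal protein genes none was called in Veh and Rpl12 was lower in Rosi, with -2.29 ± 0.46 (SE, adjusted p = 0.0209). Clk1, a kinase of SR proteins that keeps introns in many cells, was at 4.18, 2.203 and 3.803% in polysome Rosi and 10.4, 8.22 and 15.02% in input Rosi, with -1.70 ± 0.40 (SE, adjusted p = 0.0429), and was not called in Veh, with -1.03 ± 0.45 (SE, adjusted p = 0.281).

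**Figure D5:**
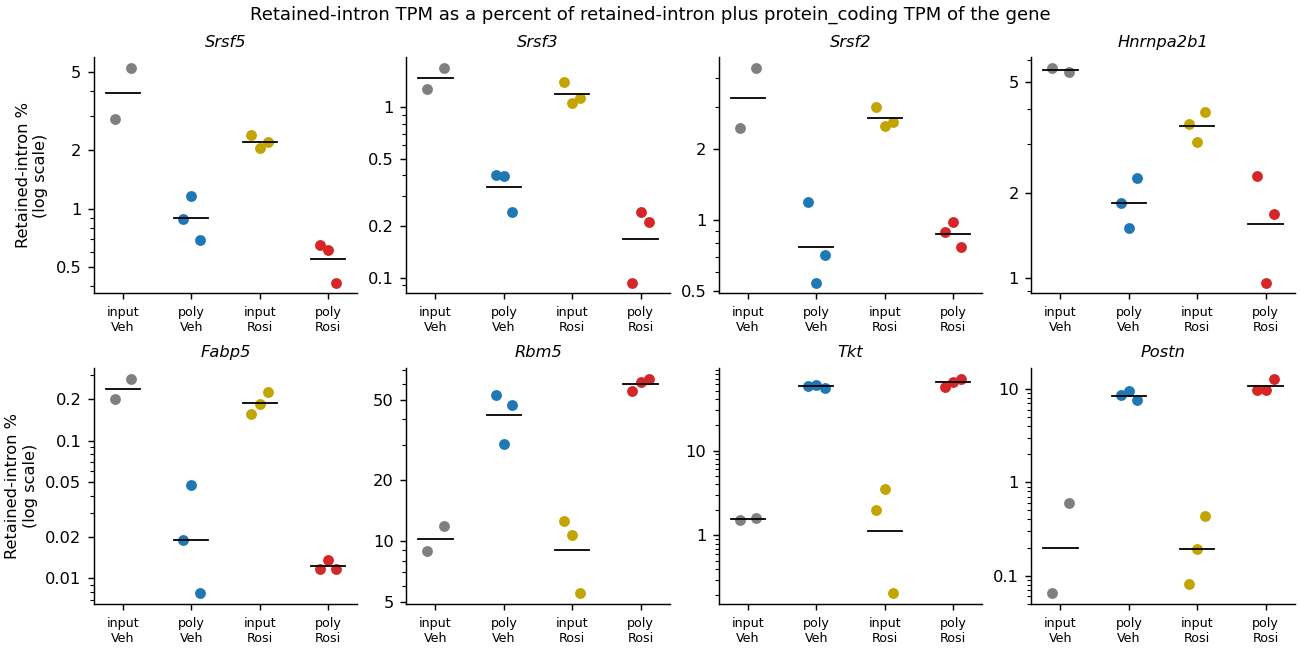
Retained_intron TPM as a percent of retained_intron plus protein_coding TPM of the gene (log scale) in each counted library, by group, with a line at the geometric mean. Srsf5, Srsf3, Srsf2, Hnrnpa2b1 and Fabp5 are lower in every polysome library than in every input library of the same treatment, and Rbm5, Tkt and Postn are higher.

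Medians differed between kinds of intron among the 943 tested models that hold 1 whole intron. By GC content, the median log2 fold change in Veh was 0.08 for 199 models under 45% GC, -0.59 for 354 from 45 to 55%, and -0.39 for 390 over 55%. In Rosi the same groups gave -0.07, -0.59 and -0.47. By length, 361 introns of up to 150 bases gave -0.27, 307 of over 150 and up to 500 bases -0.56, 193 of over 500 and up to 1500 bases -0.47 and 82 longer ones -0.34 in Veh, and -0.27, -0.56, -0.63 and -0.74 in Rosi. By place, 130 introns at the start of the gene gave -0.27, 725 internal ones -0.47 and 78 at the end -0.18 in Veh. These are descriptions, and the models in a group share composition and length.

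The same 943 models were also grouped by whether and where the intron carried a stop. In Veh, models whose in-frame stop lies more than 50 bases before the last junction of the model, the position that marks an RNA for NMD, had a median of -0.41 with 7 higher and 30 lower of 611. Models with a stop elsewhere had -0.34 with 0 and 8 of 191, those without an in-frame stop -0.30 with 0 and 0 of 103, and 38 outside the coding sequence -0.32 with 0 and 0. Beside these, 0.595% of all tested whole-intron models were higher in Veh and 4.89% lower, and 2.59% and 3.77% of all transcripts. Whether calls differ with the stop was not tested. In Rosi the medians were -0.53, -0.38, -0.22 and -0.41.

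Whether Rosi changed retention was asked in each fraction on its own, with a log2 fold change over 0.2 required. In input, 0 of 2861 retained_intron transcripts were called by edgeR, where 0.00983% of all transcripts were. An unadjusted p under 0.05 was reached by 146, against 2386 of all 30512 transcripts tested, and DESeq2 called 88. On polysomes 0 of 2066 were called, against 0.0609% of all. There 43 reached an unadjusted p under 0.05, against 820 of all 27932 tested, and DESeq2 called 11. The DESeq2 calls were counted for this class alone. The medians were -0.04 and -0.03. The retained_intron share differed by -0.00699 percentage points between Rosi and Veh in input (exact permutation test, p = 1) and by -0.178 on polysomes, where every Rosi library lay below every Veh library (p = 0.1, the smallest this exact test can give). Adipocyte markers were higher with Rosi, with summed TPM of 247 to 331 in polysome Veh and 2470 to 2839 in polysome Rosi, and the macrophage sums above were lower in input. Their part in the result was not tested.

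In the ratio to protein_coding transcripts, 0.146% of all pairs were called for Rosi over Veh in input. Retained introns of Anxa5 and Gabarapl2 were higher and those of Cul5, a ubiquitin ligase scaffold, lower. Cul5 was at 20.9 and 11.1% retained_intron TPM in input Veh and 0% in all 3 input Rosi libraries, Anxa5 at 0% in both input Veh libraries and 0.618, 0.201 and 0.396% in input Rosi, and Gabarapl2 at 0% and 3.39, 10.9 and 3.95%. All 3 thus rest on a group estimated at 0, and none was called with at least 100 bases outside protein_coding exons required. On polysomes 0% of pairs were called by limma. There 109 of 2022 retained-intron genes reached an unadjusted p under 0.05, against 239 of all 4791 pairs, and edgeR's diffSpliceDGE called 1. The smallest p-values there belonged to Mrpl21, Tapt1 and Piezo1 on the high side and to Sdha, Ccl27a and Fabp4 on the low side. Fabp4, a PPARγ target of fat cells, was at 0.0154, 0.0305 and 0.0132% in polysome Veh and 0.00244, 0.00642 and 0.00557% in polysome Rosi, and at 0.1196 and 0.243% and 0.0368, 0.0381 and 0.02796% in input, while its polysome over input difference was -2.16 ± 0.57 (SE, adjusted p = 0.0741) in Veh and -2.35 ± 0.51 (SE, adjusted p = 0.0287) in Rosi.

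The interaction of fraction and treatment asks whether Rosi altered the step from input to polysome. An unadjusted p under 0.05 was reached by 158 of 3576 retained_intron transcripts and by 1762 of all 34946. The interaction called 0.0229% of all transcripts and 1 retained_intron transcript. That transcript was Pfas-205, of a purine synthesis enzyme, with a fitted interaction of -8.84 (adjusted p = 0.0388). Pfas-205 had 0 estimated reads in both input Veh libraries, so the fitted size is no bound. It was at 0 TPM in both input Veh libraries and at 0.673, 0.692 and 0.728 in input Rosi, 0.558, 0.797 and 0.572 in polysome Veh and 0.847, 0.331 and 0.733 in polysome Rosi. Pfas-205 was not called without any 1 of 8 libraries, namely each polysome Veh and each input Rosi library and polysome Rosi replicates 1 and 3, while 5 and 8 transcripts were called without input Veh replicates 1 and 2. On the other side the smallest p-values belonged to Mrpl21-203, Cul5-207 and Shprh-204, none of them called, and each was at 0 in the 3 input Rosi libraries. Mrpl21-203 was also the 1 transcript called in opposite directions in the 2 treatments, at 0 in polysome Veh and 11.4, 16.9 and 4.77 TPM in polysome Rosi, and at 5.92 and 5.62 in input Veh. In the ratio, 0.0417% of pairs were called for the interaction, 0 of them retained introns by limma. An unadjusted p under 0.05 was reached by 110 of 2022 retained-intron genes and by 263 of all 4791 pairs, and diffSpliceDGE called 5 of these genes.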

How the data were processed

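Poly(A) RNA of polysome and input fractions was sequenced as paired ends on a HiSeq with the NEBNext Ultra RNA kit, whose strand setting is not given in the sources used here, so reads of overlapping genes cannot be told apart. The authors processed reads with bcl2fastq 2.17 and FastQC and quantified transcripts with Salmon against mm10, other versions and the transcript set not being given. The deposited estimated counts hold reads per transcript, with shared reads split by Salmon, and no replicates were pooled. The deposited TPM values are those counts per effective length, scaled by the authors to a fixed sum in each library, which lets levels of different transcripts be compared. Of 117135 transcripts, 115973 matched GENCODE M21 without version and 1162 did not. Of the retained_intron transcripts, 21445 had the same version and length. Intron sequences came from the RefSeq copy of GRCm38.p6, in which 308 of 308 checked transcripts were identical.

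Estimated counts were rounded and tested with edgeR 4.0.16 (R 4.3.3, quasi-likelihood F test, filterByExpr, TMM), with 1 fit of all 4 groups for the fractions and the interaction and 1 fit per fraction for Rosi over Veh, thresholds being an adjusted p of 0.05 and a log2 change of 1, or of 0.2 for treatment. Ratios of summed TPM, with a pseudocount of 0.1 and at least 10 mean reads on each side, were tested with limma 3.58.1 and lie on the log2(TPM + 0.1) scale. Shares per library were compared with exact two-sided permutation tests, 24 in the family, and those beyond the share of all models were not planned. DESeq2 1.42.0 and other settings were alternatives. Scripts were tested on simulated data. The SE of an edgeR log2 fold change was derived as its size over the square root of the F statistic. Floors and depth cover counting error only. Members and lists were chosen with earlier results of these data known. The named transcripts were the 10 highest by mean TPM, the 8 highest and 8 lowest called changes in Veh among those whose groups did not overlap and whose average log2 CPM was not under 0, for each other comparison those of smallest p, 6 ratio genes on each side and up to 3 per gene list. Those called in both treatments with a read in every library and at least 100 bases of their own were added after the values were seen, with Vim-204, Rpl4-203, E2f6-202 and Postn-205. A few named items are not reported here. Input Veh replicate 3, identical to replicate 2, was left out.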

Additional observations from a re-analysis of the deposited data

Results flagged for a closer look

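For Pfas-205, a whole-intron model of a purine synthesis gene, the polysome over input difference was not the same in Veh and Rosi by the test of the interaction in edgeR. The interaction was -8.84 on the log2 scale (-8.843), with log2 fold changes of 8.76 in Veh and -0.09 in Rosi. Both input Veh libraries were at 0 estimated reads, so these fitted values are no bounds, and polysome over input was at least 16.7-fold in Veh. Levels in the other 9 libraries ran from 0.331 to 0.847 TPM.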

How the results depend on the processing

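The lower whole-intron share of TPM on polysomes kept its sign and side of the threshold with estimated reads, with all 12 libraries and without each library in turn (-0.171 to -0.143 points). This share was not tested without the 10 most abundant models or without ribosomal protein genes. Nor was it tested with at least 100 bases outside protein_coding exons or as a median over genes. Of values for named transcripts, 1459 kept direction and call over all settings, 307 lost the call, 18 gained one and 6 changed sign. For ratios of named genes these counts were 779, 69, 22 and 10. The cause was not tested for any change below, while settings that leave out libraries or models are smaller by construction. Counts of calls differed between settings. In Veh, 167 retained_intron transcripts became 403 with DESeq2, 100 with no filter beyond 1 read, 323 with all 12 libraries, 84 with each treatment fitted on its own and 91 to 160 without each library in turn, and the 83 whole-intron models became 206, 49, 159, 37 and 37 to 79. In Rosi, 220 transcripts became 509 with DESeq2 and 146 to 245 without 1 library, and 101 whole-intron models became 261 and 73 to 120. For Rosi over Veh in input, where edgeR called 0, DESeq2 called 88, the unfiltered fit 6, limma on log2 TPM 2, all 12 libraries 12 and 1 fit of all 4 groups 3. On polysomes the first 2 and the last of these gave 11, 2 and 1. For the interaction, 1 call became 26 with DESeq2, 5 unfiltered, 4 with all 12 libraries and 0 to 8 without 1 library.

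Same-numbered libraries did not deviate together (correlations of -0.0533 to 0.0347), so the numbers were not taken as a pairing. With the replicate number as a block, 88 transcripts and 42 whole-intron models were called in Veh and 0 for the interaction, and the ratio gave 39 genes in Veh, 61 in Rosi and 0 for Rosi over Veh in input. The block turned the Egr3 ratio to -0.00919.

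For the ratio, 63 genes in Veh became 102 with diffSpliceDGE, 147 with all 12 libraries, 31 with whole-intron models only and 30 to 66 without 1 library. In Rosi, 99 became 153 with diffSpliceDGE, 48 with whole-intron models only and 46 to 102. For Rosi over Veh in input, 3 became 1 with a pseudocount of 0.5, 5 with 0.01, 9 without the filter, 5 with estimated reads plus 0.5, 6 with diffSpliceDGE, 6 with all 12 libraries, 0 with at least 100 bases outside protein_coding exons, 0 with whole-intron models only and 2 to 11 without 1 library. On polysomes, 0 became 1 with a pseudocount of 0.5, without the filter, with diffSpliceDGE and with all 12 libraries, and 0 to 2 without 1 library. For the interaction, 0 became 1 with a pseudocount of 0.5, 4 with 0.01, 1 without the filter, 5 with estimated reads plus 0.5, 5 with diffSpliceDGE, 3 with all 12 libraries and 0 to 6 without 1 library.

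The share of all retained_intron models, as points of polysome over input, was -0.101 in Veh and -0.179 in Rosi as a median over genes, and -0.0455 in Rosi without ribosomal protein genes. Without 1 library it ran from 0.101 to 0.268 in Veh and from -0.0202 to 0.0403 in Rosi. For Rosi over Veh in input it was 0.00875 with estimated reads, 0.00303 as a median over genes, 0.0196 without ribosomal protein genes, 0.0208 with all 12 libraries and -0.0903 to 0.0763 without 1 library. Over both treatments it was 0.144 with estimated reads, 0.184 without the 10 most abundant models and 0.0557 with at least 100 bases outside protein_coding exons, all 3 now past the threshold, and -0.14 as a median over genes, of the other sign, and it ran from 0.0575 to 0.141 without 1 library.

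Among named values run in Veh, 5 changed sign in some setting. Prelid1-202 in Veh turned to 0.00945 with upper quartile factors, 0.0406 unfiltered, 0.032 with limma on log2 TPM and -0.111 to 0.122 without 1 library, above 0 without polysome Veh replicate 1, polysome Rosi replicate 3 or input Veh replicate 2. The Fosb ratio became 0.253 with a pseudocount of 0.5 and the Tkt ratio -0.335 with whole-intron models only. The Ogt ratio became -0.182 with estimated reads plus 0.5, -0.152 with diffSpliceDGE, -0.2004 with whole-intron models only, and -0.324 to 0.706 without 1 library, being -0.0415 without input Veh replicate 2. The Egr3 ratio ran from -1.05 without input Veh replicate 2 to 1.21 without input Veh replicate 1, and was -0.708 without polysome Veh replicate 1.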
